A study of Mus musculus with 2 samples.

Results

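The genes of antigen presentation by MHC class II were compared between livers of mice given antagomir-122 and livers of mice given mm-antagomir-122. The set was 9 named genes, chosen by their known role, with earlier results of these data known. Among them were the class II chain genes H2-Aa, H2-Ab1 and H2-Eb1 and the invariant chain gene Cd74. The others were H2-DMa and H2-DMb1 of the peptide editor H2-DM, H2-Oa of its inhibitor H2-O, the transactivator Ciita and the protease Ctss. All probe sets annotated to the 9 genes were used, 18 of the 45101 on the array. Of these, 16 were annotated to 1 gene, and 2 were shared between H2-DMb1 and its neighbour H2-DMb2. The first group received antagomir-122, a cholesterol-linked, chemically modified oligonucleotide complementary to miR-122, a microRNA abundant in hepatocytes. The second received mm-antagomir-122, described as a scrambled control. Daily doses of 80 mg/kg were injected on 3 days in both groups, and livers were taken 24 h after the last. Total RNA from 3 livers was pooled for each group and hybridised as biotin-labelled cRNA to 1 array, so neither the spread between animals nor that between arrays was measured and no test between the groups was possible. Strain, sex and age of the mice are not given in the labels.

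MHC class II molecules are pairs of an alpha and a beta chain that display peptides from endosomes to CD4+ T cells. The invariant chain, encoded by Cd74, fills the groove of new class II molecules until proteases such as cathepsin S (Ctss) cut it down to a short peptide, which H2-DM exchanges for antigenic peptides. H2-O restrains H2-DM. Transcription of the chains needs Ciita, a coactivator that binds no DNA itself and is held at the X and Y boxes of class II promoters by the RFX complex, CREB and NF-Y. In liver the pathway is a property mainly of Kupffer cells, dendritic cells, B cells and sinusoidal endothelium rather than of resting hepatocytes.

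Promoter windows of 2 chain genes, H2-Oa and Ctss are shown because the X and Y boxes are known as the shared elements of class II promoters. RefSeq windows of 300 bases (GRCm38.p6, 250 bases before to 50 after the start of the transcript) were in the table used here for 6 of the 9 genes, and not for H2-Ab1, Cd74 and Ciita. The windows below, written 5′ to 3′ on the strand of the gene, are H2-Aa at chr17:34287774-34288073 on the minus strand, H2-Eb1 at chr17:34305617-34305916 on the plus strand, H2-Oa at chr17:34092129-34092428 on the plus strand and Ctss at chr3:95526536-95526835 on the plus strand. Capitals mark GCAAC, from the X box, and ATTGG, the core of the Y box.
H2-Aa: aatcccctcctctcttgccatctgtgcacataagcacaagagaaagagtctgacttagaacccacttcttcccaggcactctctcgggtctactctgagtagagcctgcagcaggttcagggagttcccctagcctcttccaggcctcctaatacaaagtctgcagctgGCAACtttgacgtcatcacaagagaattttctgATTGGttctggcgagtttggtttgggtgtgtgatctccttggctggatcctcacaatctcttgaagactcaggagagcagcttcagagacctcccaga
H2-Eb1: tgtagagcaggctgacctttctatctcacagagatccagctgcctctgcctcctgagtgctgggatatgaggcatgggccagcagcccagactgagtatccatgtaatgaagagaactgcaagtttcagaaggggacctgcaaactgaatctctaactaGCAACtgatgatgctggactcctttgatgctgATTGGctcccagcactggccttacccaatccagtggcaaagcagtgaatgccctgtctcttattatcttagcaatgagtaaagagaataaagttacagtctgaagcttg
H2-Oa: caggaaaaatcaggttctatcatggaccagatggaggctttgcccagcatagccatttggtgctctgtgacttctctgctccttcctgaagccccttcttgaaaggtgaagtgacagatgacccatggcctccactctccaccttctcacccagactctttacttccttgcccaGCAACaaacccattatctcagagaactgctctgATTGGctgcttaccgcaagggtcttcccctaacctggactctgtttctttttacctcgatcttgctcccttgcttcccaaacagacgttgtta
Ctss: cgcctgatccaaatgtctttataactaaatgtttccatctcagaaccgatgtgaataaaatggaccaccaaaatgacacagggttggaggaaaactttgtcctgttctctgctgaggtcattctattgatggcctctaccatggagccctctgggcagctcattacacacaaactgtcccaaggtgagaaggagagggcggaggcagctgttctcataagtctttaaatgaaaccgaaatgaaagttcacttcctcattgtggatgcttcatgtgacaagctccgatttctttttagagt
In H2-Aa, H2-Eb1 and H2-Oa a GCAAC on the gene's strand preceded an ATTGG, with 28, 27 and 28 bases between them. Counted from the start of the transcript, the ATTGG began at -48 in H2-Aa, -59 in H2-Eb1 and -43 in H2-Oa. The longer form TGATTGG was present in these 3 windows and in that of H2-DMb1, where it came without an exact GCAAC. Only exact letters were searched, so a missing match does not show that a window lacks an X box. The H2-DMb1 window reads ctagtaactgatgatgct before its ATTGG, where that of H2-Eb1 reads ctagcaactgatgatgct, and such variants were not counted. The Ctss window held neither GCAAC nor ATTGG on either strand. Searched on both strands, GCAAC was in 35.2%, ATTGG in 37.4% and TGATTGG in 7.82% of all 32851 windows in the table. TGATTGG contains ATTGG, and GCAAC and TGATTGG were chosen after the windows had been read. The longer X box piece TAGCAAC, in 3.66% of all windows, was found in H2-Eb1 alone among the 6 genes. Another X box piece, ACAGATG (5.01% of all windows), was found on the gene's strand in H2-Oa, starting at -137 and apart from the GCAAC, and on the other strand in H2-Aa, starting at -232. H2-DMa has a window for each of 2 starts, and these held GCAAC on the other strand in one and ATTGG in the other.

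The values were linear MAS5 signal intensities scaled by the authors, with a trimmed mean of 500.0 on both arrays. Throughout, ratios are log2 of the antagomir-122 signal over the mm-antagomir-122 signal of the same probe set. A floor was set at a mean signal of 238, the 60th percentile over probe sets other than controls, because a dim signal could not be told from background without detection calls. For each gene the brightest probe set above the floor and annotated to no other gene was taken. This left 10003 genes, whose median log2 ratio was 0.00. Between probe sets of the same gene the log2 ratios had a spread of 0.28 (SD of the difference over the square root of 2, 3860 genes read by several probe sets), which was 0.23 among the 3334 brightest genes and 0.35 among the 3335 dimmest. The spiked hybridization controls had a median log2 ratio of -0.27, with 17 of 18 below 0, so scaling on them would raise every ratio below by 0.27. The tissue label fitted the hepatocyte markers, since all 8 were above the floor, with Apoa1 at 34476.9 and 33449.1 and Ttr at 30496.3 and 29675.7 on the antagomir-122 and mm-antagomir-122 arrays.

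The classical chains were slightly higher in the antagomir-122 pool, and none passed 1.5-fold on its brightest probe set. H2-Aa encodes the alpha chain of the I-A molecule. Its brightest probe set, 1435290_x_at, had a signal of 4429.3 in the antagomir-122 pool and 3549.3 in the mm-antagomir-122 pool, which is 1.25-fold higher (log2 0.32). A second probe set of H2-Aa, 1438858_x_at, read 1674.2 with antagomir-122 and 1096.8 with mm-antagomir-122, a 1.53-fold difference. On 1452431_s_at it read 1204.7 with antagomir-122 and 1146.1 with mm-antagomir-122, a 1.05-fold difference. The 3 readings of H2-Aa thus shared a direction but not a size, with log2 ratios from 0.07 to 0.61 (SD 0.27), about the spread seen between probe sets of other genes. The remaining probe set of H2-Aa was under the floor on both arrays, at 204.0 with antagomir-122 and 177.1 with mm-antagomir-122.

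H2-Ab1 encodes the beta chain that pairs with H2-Aa. Its signals on 1450648_s_at were 1772.6 with antagomir-122 and 1569.0 with mm-antagomir-122, on 1451721_a_at 830.7 and 601.3, and on 1425477_x_at 573.2 and 462.6, in the same order of groups. All 3 were higher in the antagomir-122 pool, with log2 ratios of 0.18, 0.47 and 0.31 (mean 0.32, SD 0.15), and the brightest gave the smallest of them. H2-Eb1, the beta chain of the I-E molecule, was read by 1 probe set, at 2451.7 with antagomir-122 and 2220.9 with mm-antagomir-122, or 1.10-fold higher (log2 0.14). This was the smallest ratio among the 6 genes above the floor. The log2 ratios of H2-Ab1 and H2-Eb1 on their brightest probe sets were within the 0.23 spread of bright genes, and that of H2-Aa was 1.39 times that spread. All the probe sets of H2-Aa and H2-Ab1 carry a suffix (_s, _x or _a) that marks probes able to match more than 1 transcript, whereas that of H2-Eb1 has none. Class II chains also differ in sequence between mouse strains, and whether these probes match the alleles of the mice used was not tested.

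Cd74 encodes the invariant chain. It had a signal of 4515.1 with antagomir-122 and 3837.1 with mm-antagomir-122, which is 1.18-fold higher (log2 0.23, level with the spread of bright genes). Ctss had the highest ratio of the set. Its signal was 9802.4 with antagomir-122 and 6595.8 with mm-antagomir-122, or 1.49-fold higher (log2 0.57), just short of 1.5-fold. That ratio was 2.49 times the spread of bright genes, and 5.53% of the 10003 genes had one as high or higher. Each of these genes had 1 probe set, so neither value has a second reading on the array.

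The genes of the peptide editor H2-DM and of its inhibitor H2-O were dim, and their readings differed. H2-DMa, the alpha chain of the editor H2-DM, read 549.0 with antagomir-122 and 400.5 with mm-antagomir-122 on 1422527_at, or 1.37-fold higher (log2 0.46, 1.30 times the spread of dim genes). Its other probe set, 1459872_x_at, read 15.5 with antagomir-122 and 227.4 with mm-antagomir-122, the opposite order, but both signals lay under the floor and no fold is given. H2-DMb1, the beta chain of H2-DM, had no probe set of its own. The brighter of the 2 shared with H2-DMb2 read 253.4 with antagomir-122 and 271.6 with mm-antagomir-122 (log2 -0.10), and the dimmer one read 104.8 and 138.3 in that order. The signal of these probe sets cannot be assigned to either gene. H2-DMb2 alone, on 1419744_at, read 258.5 with antagomir-122 and 239.5 with mm-antagomir-122 (log2 0.11). The direction of the beta chain of H2-DM is thus not settled by these arrays. The dimmer shared probe set was under the floor, and the log2 ratios of -0.10 and 0.11 lie within the 0.35 spread of dim genes. H2-Oa, the alpha chain of the H2-DM inhibitor H2-O, was under the floor on both arrays, at 163.2 with antagomir-122 and 121.4 with mm-antagomir-122.

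Ciita was not readable at the floor used. Its probe set 1421210_at gave 147.0 with antagomir-122 and 125.9 with mm-antagomir-122, and 1421211_a_at gave 192.7 with antagomir-122 and 73.9 with mm-antagomir-122. On 1447075_at the order was the other way, with 33.7 in the antagomir-122 pool and 46.4 in the mm-antagomir-122 pool. All 6 signals were under 238, so no fold is given for the transactivator and its direction is not settled by these arrays.

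**Figure D1:**
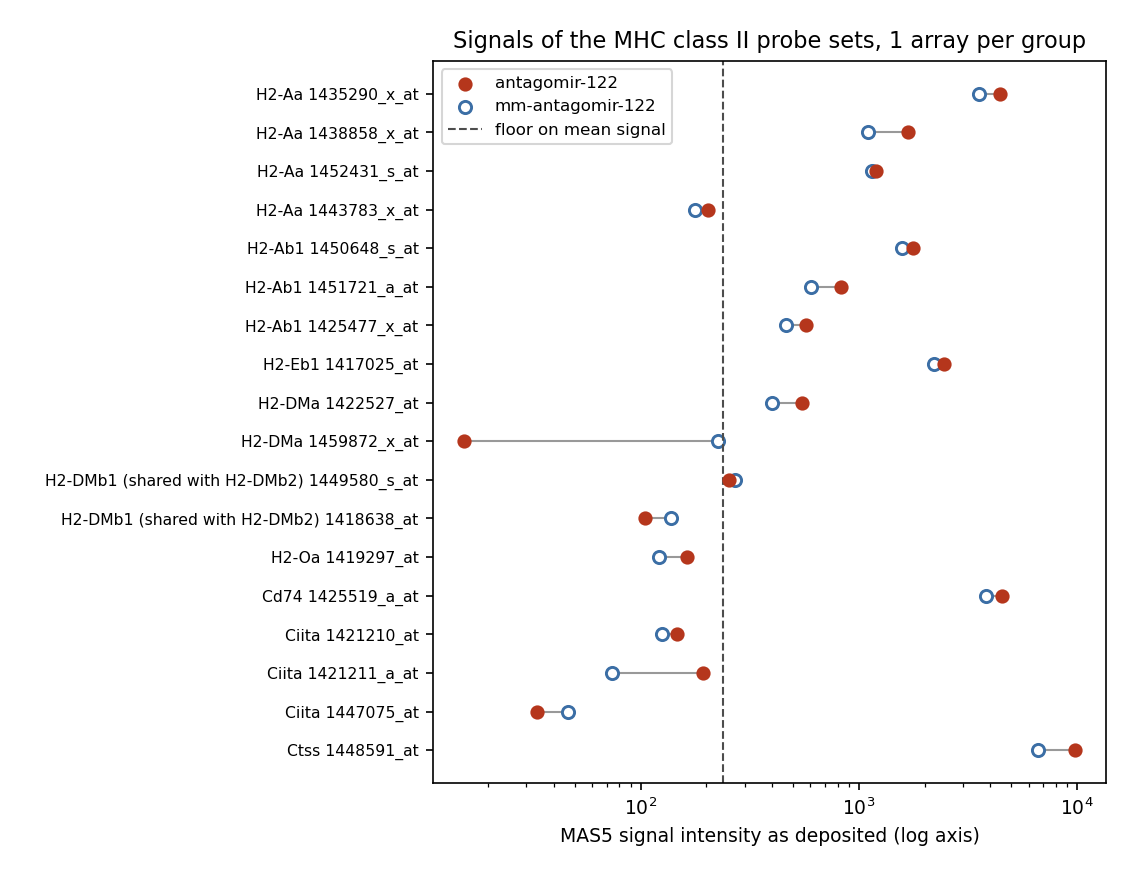
Signal of each probe set (rows) annotated to the 9 genes on a log axis, with filled circles for the antagomir-122 pool and open circles for the mm-antagomir-122 pool, 1 array each; the dashed line is the floor at 238. The 10 probe sets above the floor that belong to 1 gene have the filled circle to the right of the open one. The order is the other way for the probe sets shared by H2-DMb1 and H2-DMb2 and for the H2-DMa probe set under the floor. Those of Ciita, all under the floor, show both orders.

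Of the 9 genes, 6 had a single-gene probe set above the floor, and each of these was above the floor on both arrays. All 6 had a log2 ratio above 0, where 50.3% of the 10003 genes did, and 40.4% of the 3334 brightest did, which included all of them but H2-DMa. On the brightest probe sets 0 of the 6 were at least 1.5-fold higher and 0 were at least 1.5-fold lower, against 5.12% and 2.62% of the 10003 genes. The median log2 ratio of the 6 was 0.28, or 1.21-fold, within a range from 0.14 for H2-Eb1 to 0.57 for Ctss. Of the 6, 4 (Ctss, H2-Aa, H2-DMa and, by a small margin, Cd74) exceeded the probe set spread of bright or dim genes. That spread shows how far several probe sets for 1 gene differ on these 2 arrays, and holds no variation between arrays or animals. The share of all genes past it was not computed, so the count of 4 has no background. A ratio as high or higher was seen in 9.12% of genes for H2-DMa, 16.3% for H2-Aa, 23% for Cd74, 28.9% for H2-Ab1 and 32.4% for H2-Eb1. At probe set level, 10 of 10 single-gene probe sets above the floor were higher with antagomir-122, against 49.2% of 16023, and 1 of them (on H2-Aa) was at least 1.5-fold higher, against 5.16%. These 10 readings come from 6 genes on the same 2 arrays and are not independent.

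**Figure D2:**
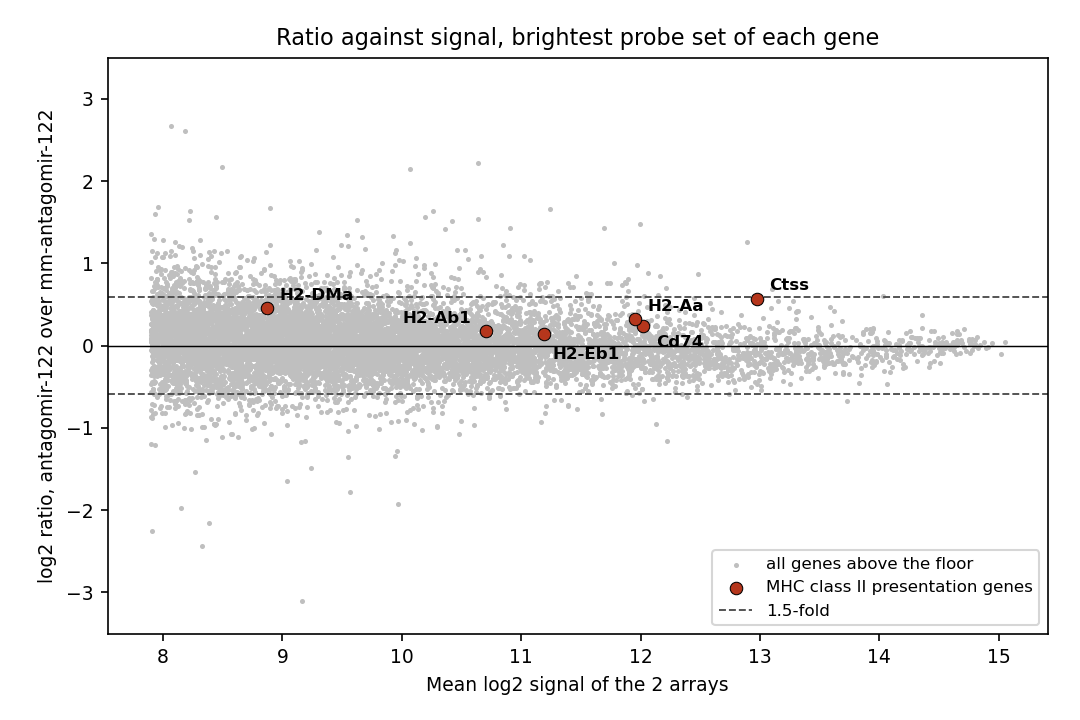
Log2 ratio of antagomir-122 over mm-antagomir-122 against mean log2 signal for the brightest probe set of each of 10003 genes (grey), with the 6 class II presentation genes above the floor in red and 1.5-fold as dashed lines. All 6 lie above 0 and below the upper dashed line, with Ctss at 0.57 and H2-Eb1 at 0.14.

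Other gene lists around the pathway had medians closer to 0. Of 4 further class II genes (H2-Ea, H2-Eb2, H2-DMb2 and H2-Ob), only H2-DMb2, given above, was above the floor. H2-Ea, the alpha chain partner of H2-Eb1, read 84.2 with antagomir-122 and 61.4 with mm-antagomir-122 on its brightest probe set, and RefSeq annotates it as a transcribed pseudogene in the C57BL/6J reference. H2-Eb2 read 104.2 and 90.1, and H2-Ob, the beta chain of H2-O, 114.4 and 125.9, with antagomir-122 first. Of 7 genes of endosomal proteolysis and class II turnover, 6 were above the floor, 4 of them above 0, and 0 passed 1.5-fold in either direction (median 0.07). Ifi30, the thiol reductase that unfolds antigens in endosomes, had the highest at 0.38, from 3494.4 with antagomir-122 and 2684.1 with mm-antagomir-122. The proteases Lgmn, Ctsb, Ctsd and Ctsl had log2 ratios of 0.07, 0.17, 0.06 and -0.02, so the 0.57 of Ctss was above that of each of these proteases. The other probe sets of Ctsb above the floor had log2 ratios of 0.07, 0.36 and 0.03, and that of Ctsl 0.16. Marchf8, one of the ubiquitin ligases known to act on class II, had -0.38, from 1557.5 with antagomir-122 and 2027.3 with mm-antagomir-122. Marchf1, the other one, was under the floor, at 160.1 with antagomir-122 and 222.9 with mm-antagomir-122.

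The factors that hold Ciita at class II promoters were all above the floor and 0 of the 7 passed 1.5-fold, with a median log2 ratio of 0.07 and 4 above 0. Of the RFX subunits, Rfx5 had a log2 ratio of 0.07 and Rfxank 0.45, from 524.3 with antagomir-122 and 384.1 with mm-antagomir-122. Rfxap was at least 1.30-fold lower, at 218.9 with antagomir-122, which is under the floor, and 308.9 with mm-antagomir-122. The NF-Y subunits Nfya, Nfyb and Nfyc had 0.24, -0.03 and 0.23, and Creb1 had -0.03. Second probe sets of Nfyb and Creb1 had -0.32 and -0.40.

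Genes of class I presentation, which displays peptides made in the cytosol, had a median log2 ratio of 0.01 over 14 genes, with 7 above 0 and 0 past 1.5-fold. Tap1, a subunit of the peptide transporter, had the highest, at 0.55 (1051.2 with antagomir-122 and 716.6 with mm-antagomir-122), followed by Nlrc5, the class I transactivator, at 0.24 and Tap2 at 0.22. Pdia3, a chaperone of class I loading, had -0.40, but another probe set of it had 0.49. Interferon-gamma is the classical inducer of Ciita, and Ifng was under the floor, at 69.3 with antagomir-122 and 35.3 with mm-antagomir-122. The genes of its signalling and response had a median of 0.07 over 11 of 15 genes, with 9 above 0 and 0 past 1.5-fold. The largest in size were 0.21 for Irgm1, 0.21 for Jak1, 0.20 for Gbp2 and 0.16 for Irf8. Other probe sets had 0.38 and 0.13 for Jak1, 0.22 for Gbp2 and 0.44 for Irf8. The 2 below 0, named after their values had been seen, were the chemokine gene Cxcl9 at -0.15 (6080.8 with antagomir-122 and 6760.5 with mm-antagomir-122), with -0.53 on its other probe set, and Jak2 at -0.06. Of 7 costimulation genes only Icam1 was above the floor, with a log2 ratio of 0.04, and Cd80, Cd86 and Cd40 were under it on both arrays. The class II genes were thus higher by a median of 0.28. The lists of endosomal, promoter factor, class I and interferon-gamma genes had medians from 0.01 to 0.07. Further class II genes and costimulation had 1 gene each above the floor, at 0.11 and 0.04. With the floor at the 40th percentile their medians were -0.01 over 2 genes and 0.21 over 6 genes. All were read on the same 2 arrays and with no test of the difference.

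Position was shared by 6 of the 9 genes. From H2-Oa to H2-Ea the RefSeq table lists 16 genes on chromosome 17, and H2-Oa, H2-DMa, H2-DMb1, H2-Ab1, H2-Aa and H2-Eb1 follow each other there with other genes between them. The 4 of these above the floor had a median log2 ratio of 0.25. The 6 other genes of the stretch above the floor had a median of 0.17, and 5 of them were above 0. Besides H2-DMb2 they were the class I processing genes Psmb9, Tap1, Psmb8 and Tap2 and the bromodomain gene Brd2, which lies next to H2-DMa. Brd2 had the highest log2 ratio of the stretch, 0.81, from 1872.5 with antagomir-122 and 1069.4 with mm-antagomir-122, and was named after its value had been seen. Cd74, Ciita and Ctss lie on other chromosomes.

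Markers of Kupffer cells, B cells and dendritic cells, which carry class II, were also mostly above 0. Those of liver endothelium, which also carries it, had a median log2 ratio of 0.06 and are given further below. Of 14 Kupffer cell and macrophage markers, 13 were above the floor and 12 of them above 0, with a median log2 ratio of 0.39 and a summed signal of 74682 with antagomir-122 and 56823 with mm-antagomir-122. C1qc and Adgre1 were 1.61-fold and 1.52-fold higher, Csf1r and Cd5l had log2 ratios of 0.42 and 0.14, and Cd163 was under the floor. Other probe sets of Csf1r had 0.33 and 0.20. The summed signal of the 6 class II genes was 23520 with antagomir-122 and 18173 with mm-antagomir-122. Ctss alone gave 9802.4 and 6595.8 of these, the largest part of each sum and of their difference. Of 11 B cell markers, 7 were above the floor, 6 of these above 0 and 4 at least 1.5-fold higher, with a median of 0.67 and sums of 5271 and 3166 in that order of groups. On its brightest probe set Ighm was 2.13-fold higher, while its others above the floor had log2 ratios of 0.27, 0.42 and 0.08, and Cd22 was 1.60-fold, Ms4a1 1.59-fold and Pax5 at least 1.73-fold higher. The mm-antagomir-122 signals of Ms4a1 and Pax5, 241.3 and 237.4, lay close to the floor. Cd79a was at least 1.17-fold higher, and Cd79b and Blnk had log2 ratios of 0.02 and -0.00. Blk was under the floor, at 191.6 with antagomir-122 and 259.0 with mm-antagomir-122. Of 11 dendritic cell markers only Itgax, Zbtb46 and Batf3 were above the floor, with log2 ratios of 0.53, 0.46 and 0.12 and sums of 1304 with antagomir-122 and 1002 with mm-antagomir-122. Another 7 were under the floor in mean signal and showed both orders, so no fold is given. Flt3 read 30.5 with antagomir-122 and 155.5 with mm-antagomir-122, and Siglech 186.1 and 199.3. The order was the other way for Xcr1 (127.5 and 93.5), Cd209a (267.2 and 107.8), Clec10a (150.3 and 75.4), Irf4 (119.4 and 84.8) and Ccr7 (39.1 and 8.7), with antagomir-122 first.

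Of 6 pan-leukocyte markers, 5 were above the floor and above 0, with a median of 0.22 and sums of 9999 with antagomir-122 and 8211 with mm-antagomir-122. Coro1a was 1.51-fold higher, and Cd52 and Laptm5 had log2 ratios of 0.22 and 0.08. Their other probe sets above the floor had 1.09 for Coro1a and 0.35 and 0.33 for Laptm5. Of 7 neutrophil markers, which belong to cells that carry little class II, 6 were above the floor, 5 of these above 0 and at least 1.5-fold higher, with a median of 1.30 and sums of 8013 with antagomir-122 and 2451 with mm-antagomir-122. S100a8, S100a9 and Ngp were 4.66-fold, 4.42-fold and 2.49-fold higher, and Mpo and Ltf at least 1.68-fold and 1.54-fold. The one below 0, Elane, named after its value had been seen, had a log2 ratio of -0.31. Of 11 T cell markers only Cd8a was above the floor, with a log2 ratio of 0.47. The 9 endothelial markers had a median of 0.06, with 5 above 0 and sums of 16410 with antagomir-122 and 16324 with mm-antagomir-122. Clec4g was at 0.06, Eng at -0.28 and Tek 1.66-fold lower, and another probe set of Eng had 0.13. The 8 hepatocyte markers had a median of -0.02, with 3 above 0, and sums of 167377 with antagomir-122 and 168064 with mm-antagomir-122. In pooled whole liver, more class II positive cells and more class II RNA per cell cannot be told apart, and the part of these cell types in the class II ratios was not tested.

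**Figure D3:**
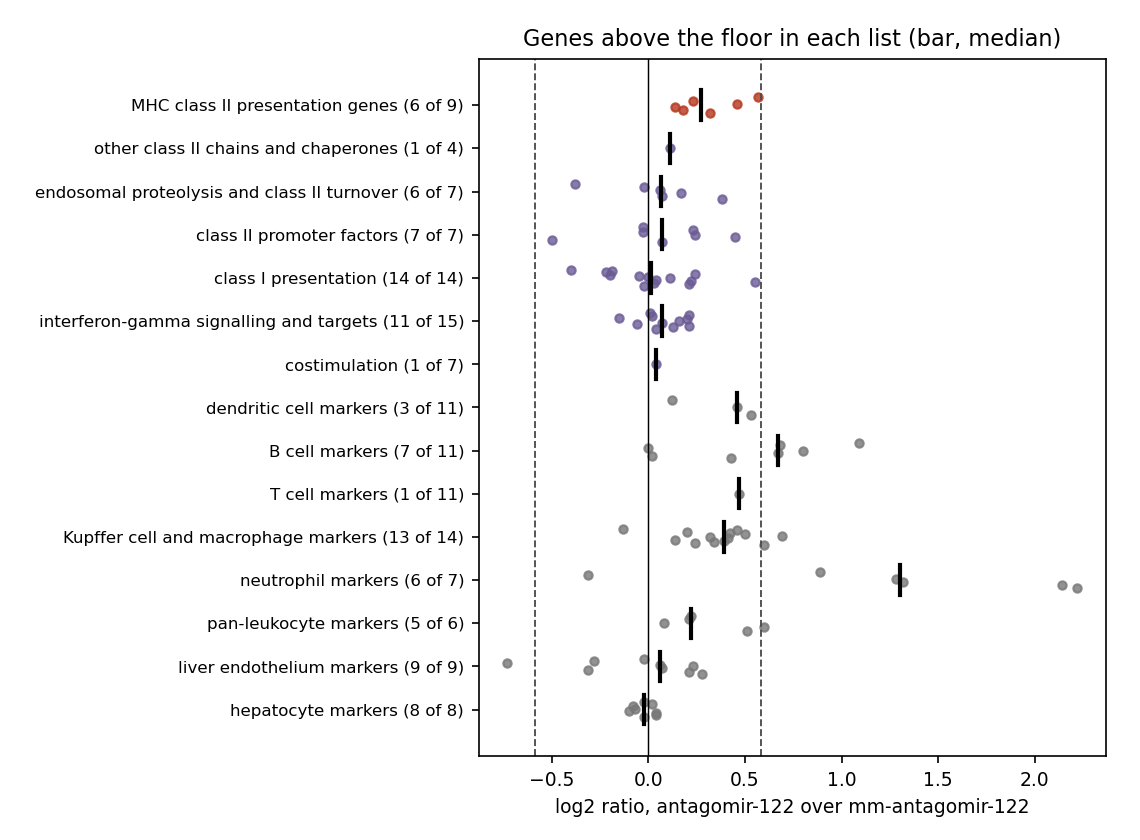
Log2 ratio of antagomir-122 over mm-antagomir-122 for each gene above the floor (points) in the class II set, 6 related lists and 8 marker lists, with the list median as a bar, the number above the floor of the number listed beside each name, and 1.5-fold as dashed lines. The class II genes (median 0.28) lie to the right of 0, as do most Kupffer cell, B cell and neutrophil markers. Class I genes (0.01), endothelial markers (0.06) and hepatocyte markers (-0.02) centre near 0.

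The 6 class II genes kept a log2 ratio above 0 under each of the alternatives tried in which they were measured, whereas the number past 1.5-fold changed. Other floors, counting shared probe sets and leaving out suffixed ones left the value of each measured gene as deposited. All 6 were above 0 with quantile normalization, where 49.5% of all genes were, with loess correction (50.4%), when scaled on the hybridization controls (84.1%) and after median centring (42.8%). With quantile normalization and with loess correction Ctss passed 1.5-fold, at log2 0.66 and 0.64, where 4.5% and 4.56% of genes were at least 1.5-fold higher. Scaled on the hybridization controls, Ctss, H2-DMa and H2-Aa passed it, at 0.85, 0.73 and 0.59, but so did 16.9% of genes. At a threshold of 1.4-fold Ctss was the single gene past it, against 8.16% of genes. H2-Eb1 was the lowest of the genes under each setting but the one that counted the shared H2-DMb1 probe set, and lay between 0.09 (median centring) and 0.42 (hybridization controls).

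**Figure D4:**
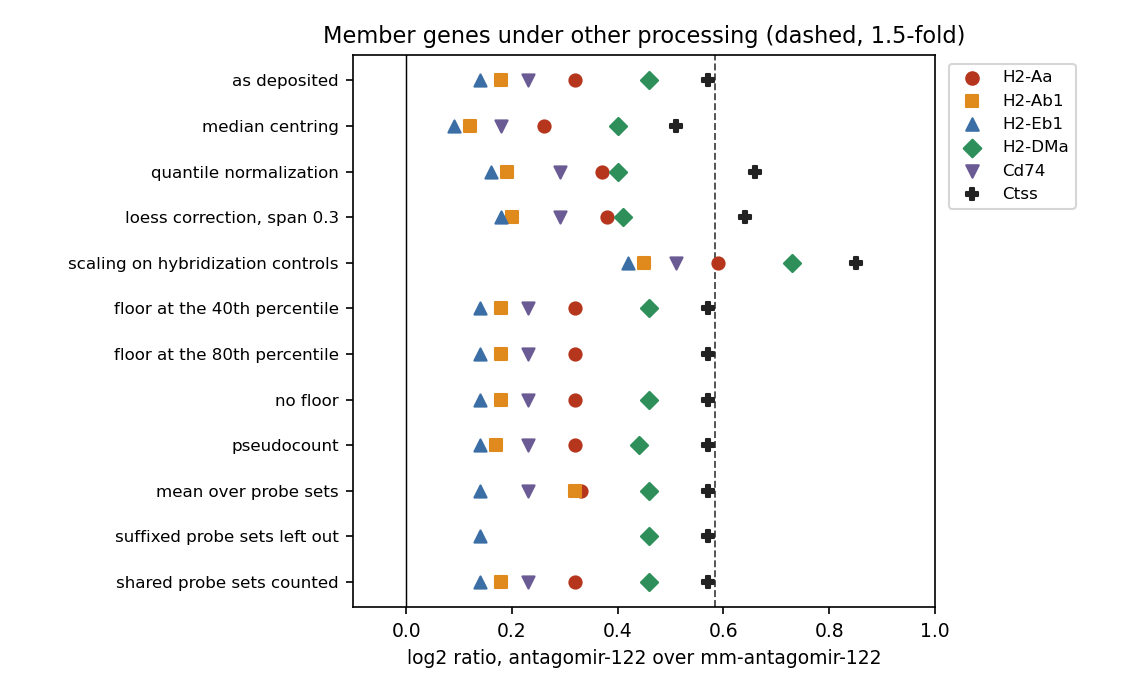
Log2 ratio of antagomir-122 over mm-antagomir-122 for each of the 6 class II presentation genes (symbols) as deposited and under 11 other ways of processing (rows), with 1.5-fold as a dashed line; a missing symbol means that no probe set of that gene was left. Every symbol lies to the right of 0, and Ctss is the rightmost in each row.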

How the data were processed

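Liver RNA from 2 groups, each a pool of 3 livers on 1 single-colour array, was compared. Each deposited value is the linear intensity of a probe set, from MAS5 (version not given) per the submitters' processing notes. No genome build is named. Groups came from sample titles. Probe sets were named from the platform annotation, and their gene identifiers set against the RefSeq table of GRCm38.p6, which matched 34741 of 34945 single-gene probe sets and changed 0 symbols. Another 932 had several genes and 9160 none.

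Ratios were log2 of antagomir-122 over mm-antagomir-122 intensity with no pseudocount, computed in Python 3.11.15 with pandas 2.3.3 and statsmodels 0.14.6, and the calculation was tested on simulated data. The floor, the choice of probe set and the thresholds are given with the results. MAS5 gives a single value per probe set. Dim genes scattered more, with a spread between probe sets of 0.35 against 0.23 for bright genes, and the number of arrays limits the precision. With 1 array per group there is no test.

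The members, lists and motifs were chosen with earlier results of these data known. The text names every probe set of the members, every gene of the 3 class II lists, up to 4 genes with the largest ratio of the other related lists, and markers past 1.5-fold or among the 2 brightest of their list. Some further listed genes, among them B cell and dendritic cell markers and genes under the floor, were named outside this rule with their values known. Folds with 1 signal under the floor are bounds against it. No gene is named for a like pattern, since 2 arrays give 1 difference per gene. A few listed genes are not reported here. Alternatives were 4 scalings, floors at the 40th and 80th percentiles and none, a pseudocount of 16.0 (the 10th percentile of signals), the mean over probe sets, leaving out suffixed probe sets, counting shared ones, and thresholds of 1.4-fold and 2-fold.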

Additional observations from a re-analysis of the deposited data

How the results depend on the processing

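Of 62 values of single class II genes under other processing, 62 were above 0 and 62 moved by less than the 0.28 spread between probe sets, although scaling on the hybridization controls, which adds 0.27 to every gene, comes close to it. Many of the 62 could not differ freely. Other floors, shared probe sets and leaving out suffixed ones reused the same reading, and median centring and control scaling shift all genes alike. The count of 62 is thus no measure of how firm the ratios are. The count of class II genes at least 1.5-fold higher, 0 as deposited, was 1 with quantile normalization, 1 with loess correction, 1 at a threshold of 1.4-fold and 3 when scaled on the hybridization controls. The count lower was 0 under each alternative. The median of the class II genes was 0.55 when scaled on those controls, and 0.46 once suffixed probe sets were left out, which leaves 3 genes. Scaling on the controls also put the medians at 0.34 for endosomal proteolysis, 0.35 for promoter factors, 0.29 for class I presentation, 0.34 for interferon-gamma genes and 0.32 for costimulation. Costimulation was at 0.21 with the floor at the 40th percentile and 0.21 with no floor, when 6 and 7 genes entered. The B cell marker median, 0.67 as deposited, was 0.47 with the mean over probe sets and 0.55 without suffixed probe sets. It was 0.55 with the floor at the 40th percentile, and 1.09 at the 80th, where 1 gene was left. Counting shared probe sets brought in H2-DMb1 at -0.10. No paired analysis was possible because each group had 1 array, and for the same reason no replicate could be left out. Signals under the floor limit H2-Oa and Ciita, and shared probe sets limit H2-DMb1.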
